A study of Mus musculus with 18 samples.

Results

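Messenger RNA of the small intestine was compared between female mice after total abdominal irradiation (TAI) with 12 Gy and female control mice. It rests on 6 of the 18 libraries of the series, 3 TAI and 3 control, chosen by their labels, and on the 11767 of 21928 gene symbols that reached at least 1 FPKM in at least 3 of the 18 libraries. The TAI mice were wild-type C57BL/6 females irradiated over the abdomen, and the control mice were wild-type C57BL/6 females that received no irradiation. The small intestine was taken at day 21 after irradiation and frozen, and RNA of the whole tissue was sequenced. Neither the age of the mice nor the stretch of intestine taken was found in the labels or methods. The other 12 libraries are irradiated females fed a high-fat diet (HFD), and males with TAI, without irradiation, or with TAI and simvastatin, 3 each. They help to estimate the spread of each gene, and the male TAI and male control libraries serve as a second, separate pair.

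The lining of the small intestine is renewed from stem cells at the base of the crypts. Their daughters divide, move up the villus and become absorptive enterocytes, mucus-making goblet cells or hormone-making enteroendocrine cells, while Paneth cells stay at the crypt base and release defensins and lysozyme against bacteria. Ionizing radiation breaks DNA and kills dividing crypt cells first, and surviving crypts then regrow the lining. In whole tissue, fewer cells of a type and less RNA per cell cannot be told apart.

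FPKM, the fragments of a transcript scaled to its length and to the depth of the library, were summed over the transcripts of a gene symbol. Over the 18 libraries the sums of FPKM ran between 390703 and 417937. Read totals are not part of such values, but the steps between low FPKM put the 6 compared libraries at relative depths of 0.901 to 1.18, with female control replicate 1 as 1. Markers of the tissue were present. Sis, the sucrase-isomaltase of the brush border, had 1206 to 1361 FPKM in the TAI mice and 1089 to 1648 FPKM in the control mice, and Muc2, the main mucin of intestinal mucus, had 532 to 717 FPKM in the TAI mice and 503 to 639 FPKM in the control mice. No Y-linked gene checked (Uty, Kdm5d, Ddx3y and Eif2s3y) exceeded 0.0205 FPKM in these 6 libraries.

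After TAI, 49 genes were higher and 40 were lower than in female control mice, 0.756% of the genes tested (0.416% higher and 0.34% lower), at an adjusted p under 0.05 from limma on log2(FPKM + 1). A further reading without adjustment gave 2025 genes at p under 0.05. The called genes ranged in log2 fold change between 0.31 and 1.66 among those that rose and between −1.12 and −0.32 among those that fell, and 82 of the 89 changed by less than 1 on this scale. The TAI and control libraries did not overlap in any of the 89, while over all genes tested 10.3% lay wholly higher and 4.14% wholly lower in the TAI mice. The median log2 fold change of all genes was 0.12, so that values below are read against it. Median ratio scaling placed this median at 0.000304 and called 23 genes higher and 48 lower, and quantile normalization placed it at −0.00782 and called 17 higher and 34 lower. Most calls lay close to the threshold, with 69 of 89 at an adjusted p above 0.04.

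The number of calls turned on single libraries. With TAI replicate 1 left out it was 1050, with TAI replicate 2 left out 9 and with TAI replicate 3 left out 17. Leaving out control replicate 1 gave 6 genes, control replicate 2 gave 20 and control replicate 3 gave 6. Of the 89 calls, all held with TAI replicate 1 left out, 8 with replicate 2 left out and 13 with replicate 3 left out, while leaving out control replicates 1, 2 and 3 kept 6, 15 and 5. The fit takes 1 spread per gene over all 6 groups, and with each group weighted by its own spread 3 genes were called, all lower. A fit of the 6 compared libraries alone called 0 genes in limma, with 855 at an unadjusted p under 0.05. The mice were labelled only by a replicate number, so the p values measure the spread between these samples, which may be technical. An exact permutation test of 3 against 3 libraries cannot give a p below 0.1.

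The 5 genes that passed the threshold whichever of the 6 libraries was left out were Aldh18a1, which was higher after TAI, and Apol7a, Hsd3b3, Slc5a12 and Fam169b, which were lower. Aldh18a1, the enzyme that opens the synthesis of proline from glutamate, had 59.2, 59.95 and 48.8 FPKM in the TAI mice, against 35.7, 37.1 and 30.5 FPKM in the control mice. The lowest TAI mouse stood above the highest control mouse, and the log2 fold change was 0.68 (standard error 0.09, adjusted p = 0.00634). Aldh18a1 (ENSMUSG00000025007) lies on the minus strand of chromosome 19 of GRCm38 from 40550257 to 40588463. Slc5a12, a sodium-coupled transporter of lactate on the enterocyte surface, had 97.2, 84.4 and 64.9 FPKM in the TAI mice, against 159, 141 and 148 FPKM in the control mice. Its level was lower in each TAI mouse than in any control mouse, and its log2 fold change was −0.87 (standard error 0.12, adjusted p = 0.00634). Slc5a12 (ENSMUSG00000041644) lies on the plus strand of chromosome 2 from 110597298 to 110647779.

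Hsd3b3 belongs to the 3-beta-hydroxysteroid dehydrogenases, which act on steroid hormones. Its values were 4.12, 4.22 and 4.32 FPKM in the TAI mice, against 9.88, 8.29 and 8.74 FPKM in the control mice. The TAI mice agreed closely with each other here, and the log2 fold change was −0.93 (standard error 0.11, adjusted p = 0.00254). Apol7a, an apolipoprotein L gene, had 50.2, 44.6 and 37.9 FPKM in the TAI mice, against 92.5, 106 and 91.7 FPKM in the control mice. This was the largest fall of all calls (log2 fold change −1.12, standard error 0.13, adjusted p = 0.00254). Fam169b had 1.604, 1.66 and 1.24 FPKM in the TAI mice, against 3.17, 3.20 and 3.18 FPKM in the control mice (log2 fold change −0.75, standard error 0.10, adjusted p = 0.00634). Hsd3b3 (ENSMUSG00000062410) lies on chromosome 3 from 98741523 to 98763127, Apol7a (ENSMUSG00000010601) on chromosome 15 from 77388219 to 77399110 and Fam169b (ENSMUSG00000074071) on chromosome 7 from 68273839 to 68363092. Both Hsd3b3 and Apol7a have close copies in the mouse genome, so that how their reads were divided among the copies is uncertain. With groups weighted by their own spread, Apol7a, Hsd3b3 and Slc5a12 kept their calls (adjusted p = 0.0461 each) and Aldh18a1 and Fam169b lost theirs (adjusted p = 0.0717 each). In the 6 libraries alone the adjusted p was 0.207 for Apol7a and Hsd3b3 and 0.506 for the other 3 genes. Aldh18a1 also missed the threshold with median ratio scaling (adjusted p = 0.071).

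**Figure D1:**
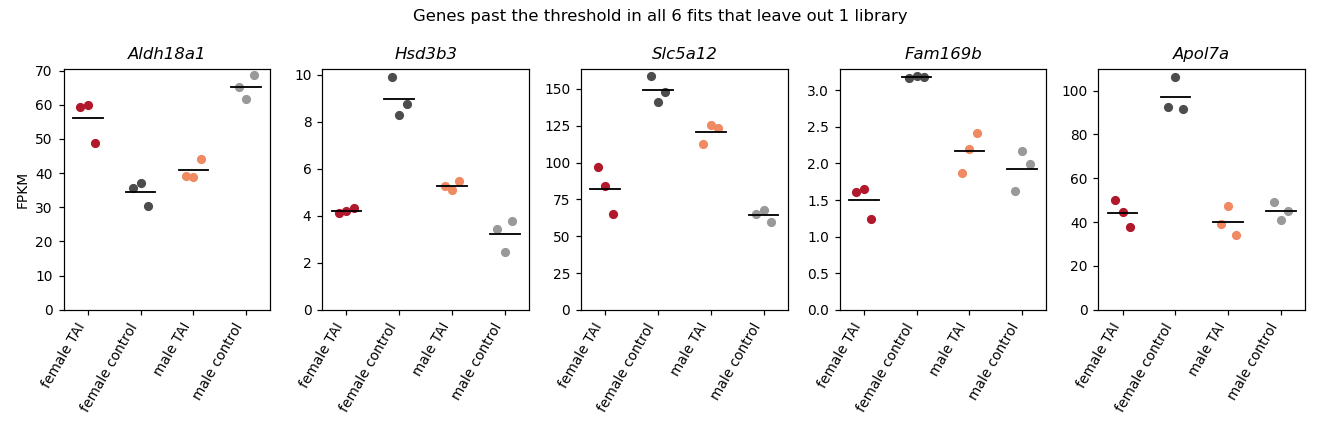
FPKM of the 5 genes called in every fit that leaves out 1 of the 6 female TAI and control libraries, in female TAI, female control, male TAI and male control mice. Each point is 1 library, the line is the mean of 3, and in females the TAI points lie apart from the control points in each panel, as with Slc5a12 at 64.9 to 97.2 FPKM after TAI and 141 to 159 FPKM in control.

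Brush border enzymes digest sugars and peptides at the tip of the enterocyte. Of 17 measured, 2 fell after TAI, where 0.34% of all genes did so, 15 missed the threshold and none rose. Their median log2 fold change was −0.29 beside 0.12 over all genes, and 16 of the 17 were negative. Dpp4, a peptidase that cuts incretin hormones, had 232, 221 and 247 FPKM in the TAI mice, against 317, 306 and 302 FPKM in the control mice (log2 fold change −0.40, standard error 0.08, adjusted p = 0.044). The groups did not overlap. The metalloprotease Mep1b had 648, 589 and 579 FPKM in the TAI mice, against 764, 707 and 737 FPKM in the control mice, and did not pass (adjusted p = 0.139). The call of Dpp4 held without TAI replicate 1 and was lost without any other of the 6 libraries (adjusted p = 0.0665 to 0.199).

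None of 16 measured genes of enterocyte structure and identity passed the test. Cdhr2, a cadherin that links microvilli, had 468, 422 and 352 FPKM in the TAI mice, against 538, 471 and 542 FPKM in the control mice (log2 fold change −0.33, adjusted p = 0.155). Fabp2, the intestinal fatty acid binding protein, had 3071, 4340 and 4159 FPKM in the TAI mice, against 6071, 6160 and 5328 FPKM in the control mice (log2 fold change −0.62, adjusted p = 0.0947). Its groups did not overlap.

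A few transporters fell. Of 13 genes of amino acid and peptide transport, 2 fell, where 0.34% of all genes did so, and none rose. The median log2 fold change of the list was −0.13, or −0.28 without TAI replicate 2, −0.24 without control replicate 2 and −0.27 under median ratio scaling. Slc3a1, the heavy chain of the cystine and basic amino acid transporter, had 148, 134 and 121 FPKM in the TAI mice, against 199, 175 and 199 FPKM in the control mice (log2 fold change −0.51, standard error 0.10, adjusted p = 0.044). Slc16a10, which carries aromatic amino acids, had 77.6, 77.8 and 66.3 FPKM in the TAI mice, against 101, 86.3 and 103 FPKM in the control mice (log2 fold change −0.38, adjusted p = 0.044). The peptide transporter Slc15a1 had 324, 387 and 425 FPKM in the TAI mice, against 524, 500.3 and 504 FPKM in the control mice, and missed the threshold (adjusted p = 0.0745) although the groups did not overlap.

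Of 10 genes listed for transport of monocarboxylates and dicarboxylates, 2 fell, where 0.34% of all genes did so, and none rose. The median log2 fold change of the list was −0.32, or −0.12 without TAI replicate 3. The genes that fell were Slc5a12 and Slc23a1, and the second of them takes up vitamin C. Slc23a1 had 21.2, 24.6 and 16.4 FPKM in the TAI mice, against 35.1, 30.0 and 33.0 FPKM in the control mice (log2 fold change −0.65, standard error 0.13, adjusted p = 0.044). The call of Slc3a1 held without TAI replicate 1 alone, that of Slc16a10 also without control replicate 2 and that of Slc23a1 also without TAI replicate 2. Without the others the adjusted p of these 3 genes lay between 0.0561 and 0.207.

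Genes that build the lipoproteins of dietary fat did not pass the test, but all 16 measured had a negative log2 fold change, with a median of −0.31 beside 0.12 over all genes. Without TAI replicate 3 the median was −0.20. In 7 of the 16 the TAI mice lay wholly below the control mice, where 4.14% of all genes did so. Acsl5, which activates long-chain fatty acids, had 713, 740 and 560 FPKM in the TAI mice, against 833, 819 and 900 FPKM in the control mice (log2 fold change −0.35, adjusted p = 0.174). Apoc2, the cofactor of lipoprotein lipase, had 744, 187 and 398 FPKM in the TAI mice, against 769, 697 and 784 FPKM in the control mice, and the TAI mice ranged widely (log2 fold change −0.97, standard error 0.33, adjusted p = 0.182). Of 9 apolipoprotein L genes, Apol7a fell, where 0.34% of all genes did so, and the other 8 did not pass.

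Of 25 genes of cholesterol synthesis, 2 rose, where 0.416% of all genes did so, none fell and 23 did not pass. The median log2 fold change was 0.31. It was 0.19 without TAI replicate 3, 0.47 without TAI replicate 1, 0.17 under median ratio scaling and 0.19 under quantile normalization. In 9 of the 25 the TAI mice lay wholly above the control mice, where 10.3% of all genes did so. Sqle, squalene epoxidase, had 7.90, 11.4 and 17.5 FPKM in the TAI mice, against 5.32, 6.82 and 4.78 FPKM in the control mice (log2 fold change 0.95, standard error 0.21, adjusted p = 0.0488). In Sqle TAI replicate 3 was the highest and TAI replicate 1 the lowest of the TAI mice. The call of Sqle held without TAI replicate 1 and was lost without any other of the 6 libraries (adjusted p = 0.0609 to 0.213).

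Elovl6 and Lpin1 were among the 15 largest rises and Pfkfb3 among the 15 largest falls. Elovl6, which lengthens fatty acids, had 29.0, 26.2 and 23.4 FPKM in the TAI mice, against 14.7, 17.9 and 14.95 FPKM in the control mice (log2 fold change 0.69, standard error 0.11, adjusted p = 0.0304). Its female control mean of 15.9 FPKM was also below that of male control (28.8), male TAI (27.8) and female TAI mice on HFD (24.3). Lpin1, a phosphatidate phosphatase of triglyceride synthesis, had 2.52, 3.94 and 3.94 FPKM in the TAI mice, against 1.26, 2.08 and 1.34 FPKM in the control mice (log2 fold change 0.80, adjusted p = 0.044). Of 17 genes of mitochondrial fatty acid oxidation, none fell and 1 rose, where 0.416% of all genes did so. It was Cpt1a, the gate for long-chain fatty acids into mitochondria, with 21.9, 26.1 and 30.7 FPKM in the TAI mice, against 18.1, 18.2 and 16.7 FPKM in the control mice (log2 fold change 0.53, adjusted p = 0.0462). The female control means of Lpin1 and Cpt1a were likewise below those of male control, male TAI and female TAI mice on HFD. Pfkfb3, which makes an activator of glycolysis, had 16.1, 14.3 and 11.8 FPKM in the TAI mice, against 33.4, 35.6 and 22.7 FPKM in the control mice (log2 fold change −1.05, standard error 0.22, adjusted p = 0.0462). The call of Elovl6 was lost without TAI replicate 2 or control replicates 1 or 3 (adjusted p = 0.0866 to 0.170), that of Lpin1 without TAI replicates 2 or 3 or control replicates 1 or 3, and those of Cpt1a and Pfkfb3 without any library but TAI replicate 1 (adjusted p = 0.0741 to 0.209 for these 3).

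Hormone-making cells were read from 15 enteroendocrine genes. One member rose, Gcg, where 0.416% of all genes did so, and none fell. In 6 of the 15 the TAI mice lay wholly above control, as did 10.3% of all genes. Gcg, which encodes proglucagon and thereby glucagon-like peptides, had 3.33, 2.50 and 5.77 FPKM in the TAI mice, against 0.680, 1.204 and 0.725 FPKM in the control mice. Its mean was 4.45 times that of the control mice, and the log2 fold change was 1.34 (standard error 0.27, adjusted p = 0.044). The female control mean of 0.869 FPKM was also below that of male control (2.66), male TAI (3.18) and female TAI mice on HFD (5.36). Gcg (ENSMUSG00000000394) lies on the minus strand of chromosome 2 of GRCm38 from 62474530 to 62483650. The granule proteins Chga and Chgb did not pass (adjusted p = 0.0784 and 0.145). Chga had 7.83, 8.19 and 12.2 FPKM in the TAI mice, against 5.56, 4.999 and 5.29 FPKM in the control mice, and Chgb had 10.4, 7.43 and 12.3 FPKM in the TAI mice, against 6.02, 5.24 and 7.08 FPKM in the control mice. The call of Gcg held without TAI replicate 1 and was lost without any other library (adjusted p = 0.0589 to 0.199). None of 14 goblet cell genes passed.

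The remaining large changes fell on genes of several kinds. Gsdmc4, of the gasdermin family, had the largest rise of all calls, with 5.99, 10.7 and 19.7 FPKM in the TAI mice, against 2.53, 3.37 and 2.48 FPKM in the control mice (log2 fold change 1.66, standard error 0.34, adjusted p = 0.044). Female control mice, with a mean of 2.80 FPKM, were below male control (8.12), male TAI (7.99) and female TAI mice on HFD (8.42). Gsdmc4 (ENSMUSG00000055748) lies on chromosome 15 from 63891264 to 63912297 among close copies, and its share of their reads is uncertain. Gm4724 had 1.43, 0.922 and 2.15 FPKM in the TAI mice and was listed at 0 in all 3 control mice, so that no fold is given (adjusted p = 0.044). Its presence did not follow irradiation over the other groups. Irradiated females fed HFD had 0, 0.014 and 0 FPKM, male TAI mice 1.29 to 1.84 FPKM and male control mice 0.972 to 2.36 FPKM. Gm14326 had 5.25, 6.98 and 11.3 FPKM in the TAI mice, against 3.11, 4.51 and 2.29 FPKM in the control mice (log2 fold change 1.02, adjusted p = 0.0462). Its female control mean of 3.30 FPKM was below that of male control (6.74), male TAI (7.53) and female TAI mice on HFD (7.42).

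Gpx1, a glutathione peroxidase, had 87.1, 113 and 125 FPKM in the TAI mice, against 56.4, 66.4 and 64.8 FPKM in the control mice (log2 fold change 0.77, standard error 0.15, adjusted p = 0.0414). The female control mean of 62.5 FPKM was also below that of male control (104), male TAI (114) and female TAI mice on HFD (106). The 14 NRF2 targets measured, which answer to oxidative stress, held 1 that rose, where 0.416% of all genes did so. It was Pgd of the pentose phosphate pathway (log2 fold change 0.39, adjusted p = 0.044). Car9, a carbonic anhydrase induced by low oxygen, had 13.1, 15.8 and 14.3 FPKM in the TAI mice, against 7.94, 9.42 and 8.54 FPKM in the control mice (log2 fold change 0.68, adjusted p = 0.0346). Sphk1, which makes sphingosine 1-phosphate, had 4.97, 5.41 and 3.36 FPKM in the TAI mice, against 2.17, 2.73 and 2.42 FPKM in the control mice (log2 fold change 0.68, adjusted p = 0.0462). Fam83e, Prss32 and Ms4a18 were also among the 15 largest rises, with log2 fold changes of 0.79, 0.71 and 0.71. The female control mean of Car9 was 8.63 FPKM, below male control (12.7), male TAI (16.4) and female TAI mice on HFD (13.5). That of Sphk1 was 2.44 FPKM, against 4.47, 5.18 and 3.93 FPKM in the same groups. In Pgd, Fam83e, Prss32 and Ms4a18 too the female control mean was below each of these groups. Of the genes in this and the preceding paragraph, Gm14326 was called without TAI replicate 1 or control replicate 2, Sphk1 without TAI replicates 1 or 3, and the others without TAI replicate 1 alone. Otherwise their adjusted p lay between 0.055 and 0.223.

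Among the falls, Nt5e, which makes adenosine from AMP at the cell surface, had 23.3, 27.5 and 26.5 FPKM in the TAI mice, against 46.0, 61.2 and 61.6 FPKM in the control mice (log2 fold change −1.09, standard error 0.19, adjusted p = 0.0304). Clca4a, of a family of chloride channel regulators, had 391, 330.0 and 358 FPKM in the TAI mice, against 803, 664 and 683 FPKM in the control mice (log2 fold change −0.99, adjusted p = 0.0414). Lgals3, the lectin galectin-3, had 213, 206 and 210.4 FPKM in the TAI mice, against 324, 337 and 341 FPKM in the control mice. Both groups were tight, and the log2 fold change was −0.67 (standard error 0.11, adjusted p = 0.0304). Spink1, an inhibitor of trypsin, had 730.2, 824 and 689 FPKM in the TAI mice, against 1279.9, 1034 and 1213 FPKM in the control mice (log2 fold change −0.65, adjusted p = 0.0462). Mfsd7b, a transporter of heme, had 36.3, 45.3 and 28.4 FPKM in the TAI mice, against 58.1, 64.5 and 58.1 FPKM in the control mice (log2 fold change −0.72, adjusted p = 0.044). The rest of the 15 largest falls were 2010109I03Rik, Gm14085, the sialyltransferase St3gal1 and the transcription factor Rfx2, with log2 fold changes of −0.86, −0.82, −0.80 and −0.71. In each gene of this paragraph but Mfsd7b, the female control mean was above male control, male TAI and female TAI mice on HFD. For Lgals3 it was 334 FPKM, against 213, 236 and 281 FPKM in these groups. For Clca4a it was 717 FPKM, against 366, 324 and 545 FPKM. Nt5e was called without TAI replicate 1 or control replicate 1, Mfsd7b without TAI replicates 1 or 2, St3gal1 and Rfx2 without TAI replicates 1 or 3, and the other 5 without TAI replicate 1 alone. Otherwise the adjusted p of these 9 genes lay between 0.0515 and 0.209.

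Genes that answer to DNA damage did not pass the test. None of 24 p53 targets and none of 25 genes of DNA double-strand break repair passed, with median log2 fold changes of 0.12 and 0.21 beside 0.12 over all genes. Bax, which drives cell death at the mitochondrion, had 8.76, 10.5 and 13.8 FPKM in the TAI mice, against 7.83, 10 and 7.502 FPKM in the control mice (adjusted p = 0.29). Phlda3, a p53 target that restrains Akt, had 1.53, 2.52 and 1.61 FPKM in the TAI mice, against 0.819, 1.76 and 1.23 FPKM in the control mice (adjusted p = 0.298). The groups overlapped in both genes. None of 30 interferon-stimulated genes passed, and their median log2 fold change was −0.09, or 0.19 without TAI replicate 3.

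Of 37 adherens junction genes, a group that the study followed, 1 rose, where 0.416% of all genes did so, and none fell. Their median log2 fold change was 0.03, which became −0.04 under quantile normalization and −0.11 under median ratio scaling. The gene that rose was Tcf7l2, which reads out Wnt signals together with beta-catenin and is listed for that link. It had 25.05, 29.6 and 25.5 FPKM in the TAI mice, against 17.3, 19.2 and 19.0 FPKM in the control mice (log2 fold change 0.51, standard error 0.11, adjusted p = 0.0463). Of 13 endothelial genes, 1 rose, where 0.416% of all genes did so. It was Lyve1, a hyaluronan receptor of lymph vessels, with 2.37, 2.26 and 2.92 FPKM in the TAI mice, against 1.41, 1.54 and 1.53 FPKM in the control mice (log2 fold change 0.49, adjusted p = 0.0483). Its female control mean of 1.49 FPKM was below that of male control (1.86), male TAI (2.22) and female TAI mice on HFD (2.35). None of 17 fibroblast and matrix genes passed, and the collagen gene Col1a1 had 7.01, 8.54 and 12.03 FPKM in the TAI mice, against 4.57, 5.74 and 4.29 FPKM in the control mice (adjusted p = 0.0757). The calls of Tcf7l2 and Lyve1 held without TAI replicate 1 and were lost without any other library (adjusted p = 0.0741 to 0.222). Of the 7 measured genes that the study assayed by other methods, among them Abcb1a, Abcb1b, Nfe2l2, Pgk1, Slc2a1 and Tnf, none passed. Abcb1a, a drug efflux pump, had 69.4, 85.5 and 58.5 FPKM in the TAI mice, against 105, 86.8 and 98.1 FPKM in the control mice (log2 fold change −0.45, adjusted p = 0.174).

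The 3 irradiated females varied more among themselves than the mice of any other group, by the SD of each gene. The root mean square over genes of the SD of log2(FPKM + 1) was 0.359 in the TAI mice and 0.213 in the control mice, and between 0.173 and 0.242 over the other 5 groups. A range of more than 1 on the log2 scale among the 3 mice was found in 1143 genes, 9.71% of those tested, in the TAI mice and in 197 genes, 1.67%, in the control mice. Of the 1143 genes, 963 were highest in TAI replicate 3 and 911 lowest in TAI replicate 1. Among the 1143, 2 were called, where 0.756% of all genes were, and a wide range among the TAI mice itself works against a call. The root mean square distance was 0.658 between TAI replicates 1 and 3, 0.492 between replicates 2 and 3 and 0.311 between replicates 1 and 2. TAI replicate 1 lay 0.285 to 0.331 from the 3 control mice, TAI replicate 2 lay 0.288 to 0.382 and TAI replicate 3 lay 0.514 to 0.726 from them, while the control mice lay 0.242 to 0.354 from each other. By this measure TAI replicates 1 and 2 were about as far from the control mice as these were from one another, and TAI replicate 3 was farther.

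**Figure D2:**
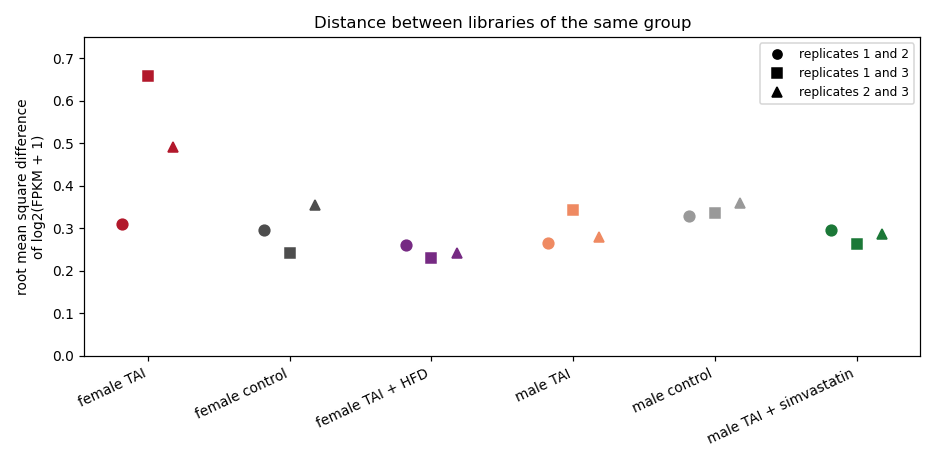
Root mean square difference of log2(FPKM + 1) over 11767 genes between the 3 pairs of libraries of each group, by group. Each point is 1 pair, and the pairs with female TAI replicate 3 stand highest, at 0.658 and 0.492, against 0.242 to 0.354 in female control.

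Paneth cell genes showed this spread most. Of 17 measured, none passed the test, although the median log2 fold change was 2.44 and 7 of the 17 lay wholly above control, where 10.3% of all genes did so. Relative to the mean of the control mice, the mean log2 value of the list was 0.53, 1.64 and 4.84 in TAI replicates 1, 2 and 3, against −0.17, 0.66 and −0.49 in the control mice. Without TAI replicate 3 the median log2 fold change of the list was 1.004, and without TAI replicate 1 it was 3.37. In that fit 16 of the 17 genes were called higher, where 7.66% of all genes were. It leaves out the TAI mouse in which the list was lowest, and many members are defensin copies. The count therefore does not test whether the list rose after TAI. Of the 12 genes of at least 10 FPKM that varied most among the TAI mice, 11 were alpha-defensins. Defa20 had 5.67, 38.1 and 602 FPKM in the TAI mice, against 2.55, 9.25 and 1.51 FPKM in the control mice, and Defa21 had 5.15, 28.1 and 520.1 FPKM in the TAI mice, against 1.57, 8.33 and 1.03 FPKM in the control mice. Defa23 had 17.5, 25.4 and 350 FPKM in the TAI mice, against 5.70, 14.9 and 3.97 FPKM in the control mice. In each of these genes TAI replicate 3 stood far above the other 5 mice, and control replicate 2 was the highest of the control mice. Spink4 of the same list spread less, with 108, 99.9 and 230.04 FPKM in the TAI mice, against 79.3, 60.1 and 70.9 FPKM in the control mice. The phospholipase gene Plb1, the one gene of the 12 that is no defensin, had 0.172, 6.48 and 72.4 FPKM in the TAI mice, against 0.566, 13.6 and 0.117 FPKM in the control mice. Lyz1, the Paneth cell lysozyme, chosen after its values were seen, had 46.9, 219 and 1524 FPKM in the TAI mice, against 31.1, 84.0 and 20.5 FPKM in the control mice.

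**Figure D3:**
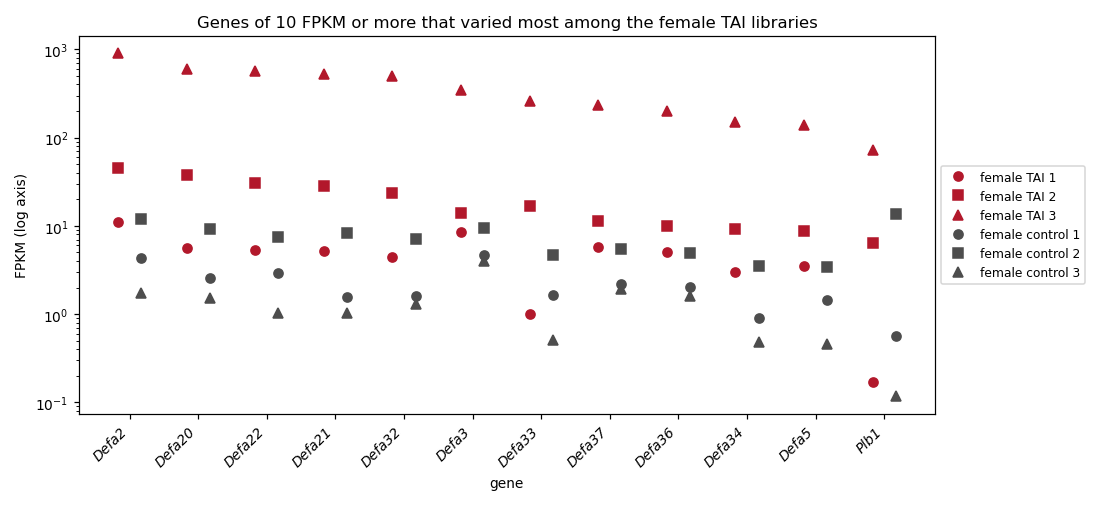
FPKM on a log axis of the 12 genes of at least 10 FPKM with the largest SD among the female TAI libraries, in each female TAI and female control library. TAI replicate 3 is the highest library for every gene, at 602 FPKM for Defa20, and control replicate 2 is the highest of the 3 control libraries.

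The alpha-defensins lie in a cluster of close copies on chromosome 8, so that FPKM of single copies are uncertain. The letters upstream of their start sites are shown because these genes moved together across the 6 mice. From RefSeq on GRCm38.p6, the 160 bases before the start are given 5′ to 3′ on the strand of the gene, and capitals mark matches to CTTTGAT or its reverse complement ATCAAAG, the core letters that TCF/LEF factors of the Wnt pathway are known to bind. Lyz1 is shown beside them as a Paneth cell gene of another chromosome.
Defa21: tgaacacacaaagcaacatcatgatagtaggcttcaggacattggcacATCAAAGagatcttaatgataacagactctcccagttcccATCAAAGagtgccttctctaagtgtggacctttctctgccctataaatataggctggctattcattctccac
Defa20: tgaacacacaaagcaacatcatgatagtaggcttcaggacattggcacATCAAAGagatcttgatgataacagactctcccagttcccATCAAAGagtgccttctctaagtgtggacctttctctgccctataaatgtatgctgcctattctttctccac
Defa23: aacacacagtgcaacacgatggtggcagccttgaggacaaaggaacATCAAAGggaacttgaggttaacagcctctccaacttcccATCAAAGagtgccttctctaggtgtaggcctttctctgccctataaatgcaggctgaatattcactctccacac
Lyz1: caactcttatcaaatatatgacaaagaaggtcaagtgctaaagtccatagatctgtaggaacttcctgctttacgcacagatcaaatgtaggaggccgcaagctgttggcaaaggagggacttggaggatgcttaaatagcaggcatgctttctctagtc

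These stretches are chr8:21025385-21025544 for Defa21, chr8:21509098-21509257 for Defa20 and chr8:21054880-21055039 for Defa23, all on the plus strand, and chr10:117292869-117293028 for Lyz1 on the minus strand. Defa20 shared 96.9% of aligned letters with Defa21 and Defa23 80.2%, and each of the 3 held 2 matches. Within 250 bases before the start, the letters were present in all 10 alpha-defensin genes tested that had a sequence, of 18 tested, and in 5 of 11 genes of the Paneth cell list, against 3.21% of 32851 promoters. The defensin copies share most of their sequence and are not independent cases. The stretch shown for Lyz1 held no match.

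TAI replicate 3 also stood highest in the means of other lists. Such a rise was not particular to these lists, since 963 of the 1143 genes with a wide range were highest in TAI replicate 3. It also had 11752 genes at 1 FPKM or more, against 10540 to 11284 in the other compared libraries. The list means here and below were not set against a mean of all genes in each library. The mean log2 value of 34 cell cycle genes relative to control was −0.19, 0.35 and 1.17 in TAI replicates 1, 2 and 3, against −0.04, 0.25 and −0.22 in the control mice. That of 22 crypt stem cell and Wnt target genes was −0.17, 0.31 and 0.99 in the TAI mice, against −0.08, 0.25 and −0.18 in the control mice, and that of 35 cytosolic ribosomal protein genes was −0.24, 0.17 and 1.12 in the TAI mice, against −0.03, 0.27 and −0.24 in the control mice. None of the genes of these 3 lists was called. With TAI replicate 1 left out, 5 cell cycle genes, 6 crypt genes and 1 ribosomal protein gene were higher, in a fit that called 7.66% of all genes higher. That fit leaves out the TAI mouse in which these lists were lowest, so these counts do not test a rise after TAI. In the means of these lists TAI replicate 1 lay within or near the range of the control mice and TAI replicate 3 above it.

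Single members did not all follow the means. The cyclin gene Ccnd1 had 4.22, 10.2 and 23.5 FPKM in the TAI mice, against 3.76, 5.14 and 2.78 FPKM in the control mice (adjusted p = 0.165). Ccne2, another cyclin gene, had 4.96, 3.58 and 4.23 FPKM in the TAI mice, against 8.16, 5.199 and 7.20 FPKM in the control mice, so that the TAI mice lay wholly below (log2 fold change −0.57, adjusted p = 0.1002). Ephb2, a receptor of the crypt base, had 2.06, 3.91 and 5.80 FPKM in the TAI mice, against 1.47, 2.65 and 1.43 FPKM in the control mice (adjusted p = 0.18). Ly6a, a surface antigen of the crypt list, had 20.1, 17.97 and 18.3 FPKM in the TAI mice, against 7.81, 12.1 and 9.66 FPKM in the control mice (log2 fold change 0.88, adjusted p = 0.15). In Ly6a TAI replicate 1 was the highest mouse and the groups did not overlap.

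Markers of macrophages and dendritic cells, of fibroblasts and of endothelium were likewise highest in TAI replicate 3, while those of adipocytes were not (0.57, 0.86 and −0.11 in the TAI mice, against −0.53, 0.53 and 0.0064 in the control mice). The mean log2 value of 15 macrophage and dendritic cell genes was −0.028, −0.091 and 0.75 in TAI replicates 1, 2 and 3, against 0.03, 0.19 and −0.22 in the control mice. That of 17 fibroblast and matrix genes was −0.0027, 0.17 and 0.75 in the TAI mice, against −0.029, 0.26 and −0.23 in the control mice, and that of 13 endothelial genes was 0.18, 0.18 and 0.60 in the TAI mice, against 0.02, 0.15 and −0.17 in the control mice. The summed FPKM of the macrophage and dendritic list was 57.5 to 129 in the TAI mice and 53.5 to 80.6 in the control mice, that of the fibroblast list 127 to 225 in the TAI mice and 101 to 152 in the control mice, and that of the endothelial list 32.4 to 49.1 in the TAI mice and 21.4 to 31.2 in the control mice. No gene of these 3 lists was at 0 in all 6 mice, and the part of these cells in the spread was not tested.

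Genes that mark the proximal small intestine also set TAI replicate 3 apart, while those of the distal part gave a mixed picture. The mean log2 value of 12 proximal genes was −0.01, −0.06 and −0.59 in TAI replicates 1, 2 and 3, against 0.02, −0.08 and 0.06 in the control mice. That of 9 distal genes was −0.37, −0.09 and 0.40 in the TAI mice, against 0.03, 0.13 and −0.17 in the control mice. Here TAI replicates 1 and 3 lay on opposite sides of the control mice. The summed FPKM of the distal list was 2143 to 2506 in the TAI mice, highest in TAI replicate 3, and 2541 to 2780 in the control mice. Adh1, an alcohol dehydrogenase of the proximal gut, had 168, 171 and 107 FPKM in the TAI mice, against 245, 199 and 237 FPKM in the control mice (adjusted p = 0.102). Of the distal list, Clca4b had 874, 859 and 1025 FPKM in the TAI mice, against 1234, 1243 and 1154 FPKM in the control mice (log2 fold change −0.40, adjusted p = 0.102), with all TAI mice below the control mice. Slc51a of the same list went the other way, with 86.8, 96.3 and 109 FPKM in the TAI mice. The control mice had 75.04, 63.8 and 86.9 FPKM, and the groups overlapped (log2 fold change 0.37, adjusted p = 0.165). Among the 9 distal genes, 4 had a positive and 5 a negative log2 fold change. Metallothionein genes answer to zinc and glucocorticoids. Mt1 had 29.7, 93.5 and 134 FPKM in the TAI mice, against 24.97, 23.5 and 20.01 FPKM in the control mice (adjusted p = 0.102). Mt2 had 9.73, 36.5 and 70.8 FPKM in the TAI mice, against 7.54, 6.38 and 3.89 FPKM in the control mice (adjusted p = 0.124). In both, TAI replicates 2 and 3 stood well above the control mice and TAI replicate 1 just above them. Lipoprotein genes were lowest in TAI replicate 3, with a mean log2 value of the list of −0.19, −0.25 and −0.60 in the TAI mice, against 0.02, −0.07 and 0.04 in the control mice. Of the 49 genes called higher, TAI replicate 3 was the highest TAI mouse in 35, and of the 40 called lower it was the lowest in 22. The part of gut position or of crypt content in these results was not tested.

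**Figure D4:**
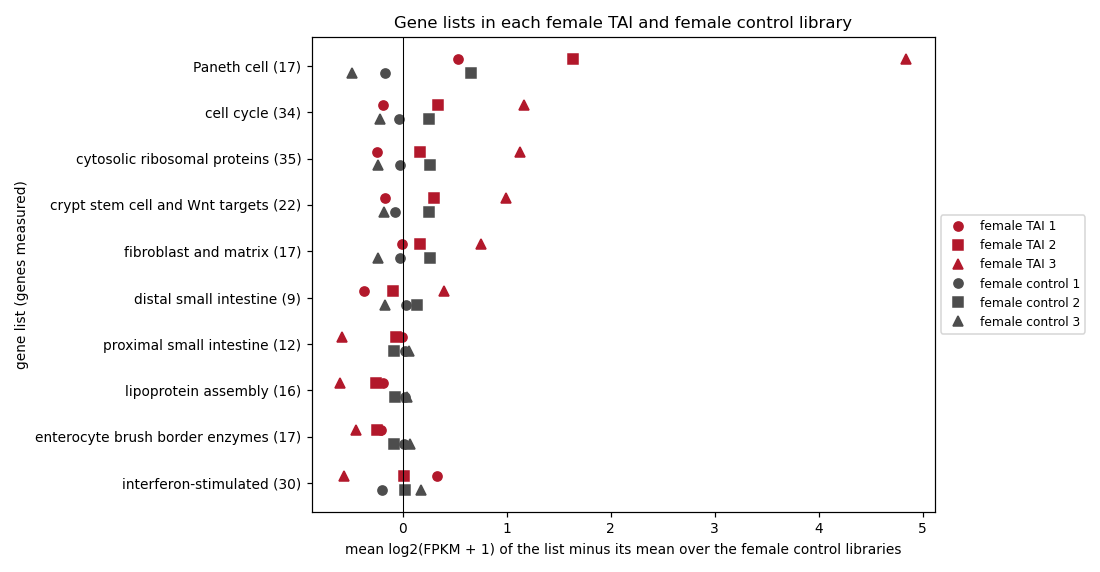
Mean log2(FPKM + 1) of the genes of 10 lists in each female TAI and female control library, minus the mean over the control libraries. TAI replicate 3 lies at 4.84 for Paneth cell genes and at −0.59 for proximal genes, while TAI replicate 1 lies at 0.53 and −0.01.

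Whether the change after TAI was the same in males was tested as the difference between the female and the male change, which share no library. It was past the threshold in 157 genes, 1.33% of those tested, and 23 of the 89 genes called in females were among them. In males 247 genes, 2.1%, were called for TAI against control. The lists of called genes shared 10 genes, 11.2% of the female and 4.05% of the male list, and 8 of the 10 had opposite signs. Across all 11767 genes, the log2 fold changes of females and males had a Pearson r of 0.32, given as a description, since genes of 1 library share its depth and makeup. Of the 40 genes that fell in females, 28 had a positive log2 fold change in males, and of the 49 that rose, 16 had a negative one.

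Slc5a12, lower after TAI in females, had 113, 126 and 123.4 FPKM in male TAI mice, against 65.2, 67.7 and 59.4 FPKM in male control mice. The male log2 fold change was 0.90 and the difference between females and males was −1.77 (standard error 0.17, adjusted p = 0.000161). Aldh18a1, higher in females, had 39.3, 39.0 and 44.3 FPKM in male TAI mice, against 65.2, 61.7 and 68.7 FPKM in male control mice (difference 1.35, adjusted p = 0.000161). Hsd3b3 had 5.27, 5.09 and 5.49 FPKM in male TAI mice, against 3.42, 2.48 and 3.79 FPKM in male control mice (difference −1.51, adjusted p = 0.000161). In these 3 genes the means of both TAI groups lay between those of the female and the male control mice. Apol7a had 39.0, 47.2 and 34.0 FPKM in male TAI mice, against 48.98, 41.0 and 44.9 FPKM in male control mice, a level near that of irradiated females (difference −0.95, adjusted p = 0.0206).

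The strongest differences outside the female calls were in clock genes. Tef, a transcription factor of the clock output, had 12.7, 19.9 and 13.6 FPKM in female TAI mice, against 19.2, 15.2 and 21.4 FPKM in female control mice, and the groups overlapped. It had 20.7, 23.4 and 29.4 FPKM in male TAI mice, against 5.86, 5.53 and 4.50 FPKM in male control mice (difference −2.28, adjusted p = 0.000161). Per3, a clock repressor, had 3.59, 4.99 and 3.17 FPKM in female TAI mice, against 5.31, 4.72 and 5.602 FPKM in female control mice, and 6.39, 6.66 and 11.6 FPKM in male TAI mice, against 1.23, 1.18 and 0.991 FPKM in male control mice (difference −2.42, adjusted p = 0.000161). Of 14 core clock genes, none was called in females, where 0.756% of all genes were. For the difference 7 were called, where 1.33% of all genes were. In Tef and Per3 the male control mice were the group that stood lowest, and the hour of tissue collection was not found in the labels or methods.

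**Figure D5:**
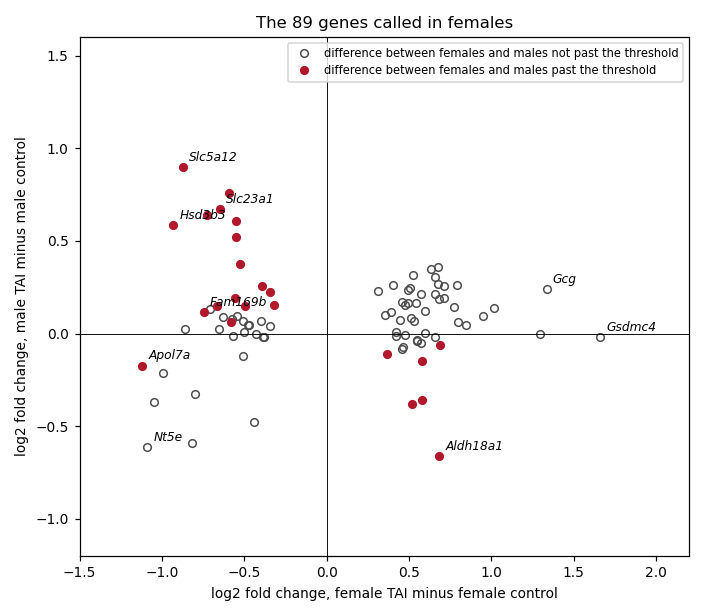
Log2 fold change of male TAI minus male control against that of female TAI minus female control, for the 89 genes called in females. Filled points are the 23 genes in which the difference between females and males passed the threshold, and Slc5a12 lies at −0.87 in females and 0.90 in males.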

How the data were processed

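The authors deposited FPKM for 55869 transcripts of 21956 genes in each of 18 libraries, made from total RNA of small intestine. Bowtie2 2.2.8, Cuffdiff 2.1.1, HISAT2 and StringTie 1.3.1 appear in the notes of the submitters, without their roles, and the genome build was not given there. FPKM hold no read totals, so no count test was made. Values were summed per symbol and taken as log2(FPKM + 1), which makes the fold change of low genes smaller. The labels of the samples gave the groups, and no 2 libraries were identical.

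All 18 libraries entered a single limma 3.58.1 model (R 4.3.3) with an intensity trend and a mean for each group, with Benjamini-Hochberg adjustment over 11767 genes at 0.05, and the other 10161 symbols were left out. The script was tested on simulated data. The alternatives were pseudocounts of 0.1 and 5, other filters, scalings and variance models, fits of the 6 compared or the 9 female libraries, a replicate block, transcripts, and each library left out in turn. The members and the 49 gene lists, written from general knowledge, were chosen with earlier results of these data known. The text names genes by a rule: the 15 largest changes in each direction among called genes, every gene called in all 6 fits that leave out 1 library, up to 4 members of a described list by smallest p, the 12 largest SD among the female TAI libraries averaging at least 10 FPKM, the 6 smallest p for the difference between females and males, genes that the study assayed by other methods, and sex genes. Sis, Muc2 and Lyz1 fall outside it, and a few genes that the rule names are not reported here. Positions were read from GENCODE M21 by gene identifier and sequences from RefSeq, with Python 3.11.15. Plots were made in matplotlib 3.10.9.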

Additional observations from a re-analysis of the deposited data

Results flagged for a closer look

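In 20 of the genes named here, the change after TAI differed between females and males by the test of the difference itself (limma, adjusted p under 0.05). The values are the female minus the male log2 fold change. The difference was −1.77 for Slc5a12, 1.35 for Aldh18a1 and −1.51 for Hsd3b3, genes called in both sexes with opposite signs, and likewise −1.32 for Slc23a1 and −1.36 for Mfsd7b. Among clock genes it was −2.28 for Tef, −2.42 for Per3 and −1.95 for Hlf, and it was −2.18 for the citrate and succinate transporter Slc13a2. None of these 4 was called in females.

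Among further genes of the absorptive surface and of drug and alcohol handling, the difference was −0.97 for Slc15a1, −0.76 for Enpep, −1.45 for Abcb1a, −0.79 for Abcb1b and −1.39 for Adh1. It was −0.95 for Apol7a, −0.86 for Fam169b and −0.82 for Lgals3. The positive differences beside Aldh18a1 were 0.75 for Elovl6, 0.93 for the mevalonate pathway gene Mvd and 1.203 for Col1a1.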

How the results depend on the processing

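The count of 89 called genes moved with most settings. It was 3 with groups weighted by their own spread, 16 with no filter on low values, 35 with no intensity trend, 56 with a pseudocount of 5, 51 with quantile normalization, 0 in the 6 compared libraries alone, 2 in the 9 female libraries alone, 6 with transcripts in place of genes and 193 at an adjusted p of 0.10. Without each female library in turn it ranged between 6 and 1050. The count of 157 genes with a difference between females and males was 65 with weighted groups, and between 87 and 184 without each library in turn. Over the 36 named genes that were called, 327 of 677 gene and setting combinations kept the call. No alternative reversed a direction, but leaving out a library could not do so, since the groups did not overlap in these genes. Other filters and variance models keep the same fold change and could not do so either. With the replicate number as a block, 46 genes were called, 43 of them among the 89. Same-numbered TAI and control mice had correlations of their deviations from the group means of 0.158, −0.23 and −0.459. Those of differently numbered mice ran between −0.47 and 0.486. With 3 mice in a group these values cannot tell whether the numbers pair the mice, and this is not known.

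With median ratio scaling, the median log2 fold change was −0.43 for brush border enzymes, −0.20 for enterocyte structure, −0.27 for amino acid and peptide transport, −0.22 for apolipoprotein L genes, −0.10 for fatty acid oxidation, −0.0675 for NRF2 targets, −0.14 for core clock genes, 0.00086 for p53 targets and −0.11 for adherens junction genes. With quantile normalization it was −0.28 for apolipoprotein L, −0.12 for core clock, 0.072 for enteroendocrine and −0.0449 for adherens junction genes, and with a pseudocount of 5 it was −0.046 for apolipoprotein L genes. Without each library in turn it ranged between −0.23 and 0.24 for distal genes, −0.36 and −0.12 for monocarboxylate and dicarboxylate transport, −0.28 and −0.099 for amino acid and peptide transport, −0.19 and 0.018 for apolipoprotein L genes, 0.00748 and 0.11 for NRF2 targets and −0.12 and 0.032 for core clock genes. The cause of these movements was not tested. Groups of 3 mice and values without read counts limit the precision.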
